A study of Mus musculus with 4 samples.

Results

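Transcript levels of 10 AP-1 and immediate early factors (Jun, Junb, Jund, Fos, Fosb, Fosl1, Fosl2, Atf3, Egr1 and Myc) were followed through 4 mouse liver libraries. The genes were taken by symbol, as a set proposed with earlier results of these data known, and all 10 were found among the 13903 genes of the deposited table. Every animal was an OGT-floxed mouse on the C57BL/6J background fed the CDE diet, a choline-deficient, ethionine-supplemented diet that injures the liver, so no group on a normal diet was compared. Mice that received AAV8-TBG-CRE are labelled OGT-KO and mice that received AAV8-TBG-eGFP are labelled control, and livers of each label were collected without recovery or after 7 days of recovery. The TBG promoter of the virus is active in hepatocytes, so the other cells of the liver keep a floxed Ogt gene, which encodes O-GlcNAc transferase. Ages are not in the labels. RNA of 3 mice was pooled into 1 library per condition, and mRNA was sequenced from whole liver. No value therefore has a replicate error, and no difference between conditions was tested.

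The 4 libraries held 19972699 to 22866431 reads on listed genes. Values are CPM, reads scaled to a library total of 1000000 reads on listed genes. Intervals of a level are exact 95% Poisson intervals and intervals of a ratio are exact 95% conditional binomial intervals, and both cover counting error only. Ogt stood at 55.3 CPM in the OGT-KO-labelled library and 64.7 in the control library with no recovery, and at 77.7 and 55.7 CPM after 7 days. In CPM the level of the whole gene thus went against the label at 7 days. Whether the deleted part of the gene was lost cannot be read from this level. Liver identity was clear from 6 hepatocyte markers, Alb and Ttr among them, which summed to 50956 to 82212 CPM. A mean of 10 CPM or more over the 4 libraries was found for 8963 genes, which were higher in the OGT-KO-labelled library by a median of 0.51 with no recovery and 0.48 after 7 days, on the log2(CPM + 1) scale that is used for every log2 difference here. Scaling by the median ratio of the genes moved these medians to -0.19 and -0.18. Differences are therefore also given relative to the median gene where the reading depends on it. For Ogt the direction at 7 days depended on the scaling. Its log2 difference was 0.47 in CPM, -0.005 relative to the median gene and -0.20 with median-ratio scaling.

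AP-1 is a family of dimers of basic leucine zipper proteins that bind DNA. JUN proteins pair with one another or with FOS proteins, FOS proteins need a JUN partner, and ATF3 can join either set. Many of these genes, with Egr1 and Myc, are immediate early genes: they are transcribed within minutes of a growth factor, cytokine or stress signal, without new protein synthesis, through MAP kinases, SRF and CREB/ATF proteins, and several of their RNAs are short-lived. In the liver they are known for their response to partial hepatectomy and injury, and JUN is needed for normal regeneration. EGR1 is a zinc finger protein that binds GC-rich sites, and MYC binds E-boxes as a dimer with MAX.

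Promoters of 3 members are shown because JUN and ATF proteins are known to act on such sites and because the levels of these genes are described below. RefSeq promoters (GRCm38.p6) were matched for 7 of the 10 members, and Fosl1, Egr1 and Myc are named only. The 120 bases before the RefSeq start are printed 5′ to 3′ on the strand of the gene, at chr4:95052223-95052342 on the minus strand for Jun, chr12:85473770-85473889 on the plus strand for Fos and chr1:191183334-191183453 on the minus strand for Atf3. Capitals mark TGACATCA, TGACGT and TATAAA, the second of which is read on the other strand in Atf3.
Jun: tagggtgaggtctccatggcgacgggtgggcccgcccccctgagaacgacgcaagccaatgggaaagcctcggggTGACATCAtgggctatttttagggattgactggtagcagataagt
Fos: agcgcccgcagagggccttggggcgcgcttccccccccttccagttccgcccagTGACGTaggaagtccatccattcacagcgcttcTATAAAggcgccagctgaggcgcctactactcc
Atf3: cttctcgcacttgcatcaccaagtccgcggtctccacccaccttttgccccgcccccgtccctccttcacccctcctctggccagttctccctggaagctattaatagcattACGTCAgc

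Both strands of the 250 bases before each start were searched. TGACATCA, a variant of the cyclic AMP response element, lay at -45 to -38 in Jun and is in 2.93% of 32851 RefSeq promoters. TGACGT, the core of that element, lay at -66 to -61 in Fos and on the other strand at -8 to -3 in Atf3, against 6.47% of all promoters. The full element TGACGTCA, which holds that core, is in 1.55% of promoters and in 0 of the 7 members. TATAAA lay at -33 to -28 in Fos, against 12.4% of promoters. The EGR1 site GCGNGGGCG lay at -50 to -42 in Fosb and at -79 to -71 in Fosl2, against 4.70%. The AP-1 site TGANTCA (6.75% of promoters), the E-box CACGTG (6.02%) and the CArG box bound by SRF (1.47%) had no match in these windows of the 7 members. For Jun and Fos the RefSeq start is the annotated start of the gene in GENCODE M21, while for Atf3 it lies 34706 bases downstream of it, so the Atf3 window belongs to an internal start. For Fosl2 it lies 671 bases downstream, so that window also lies past the annotated start. The offset was 6 for Fosb, -30 for Junb and -1210 for Jund, where a negative offset is upstream. A match is a description of letters, and promoter activity was not measured.

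Of the JUN family, Jund had the highest CPM of the set in every library. Jun, the strongest activator of the family, had 135 CPM (131 to 140) in the OGT-KO-labelled library with no recovery, 31.2 CPM (28.9 to 33.7) in the control with no recovery, 93.9 CPM (90.0 to 98.0) in the OGT-KO-labelled library after 7 days and 20.8 CPM (18.9 to 22.9) in the control after 7 days. Both OGT-KO-labelled libraries stood above both controls, and within each label the level was lower after 7 days. The CPM ratio of the OGT-KO-labelled library to the control was 4.34 (3.99 to 4.73) with no recovery, then 4.51 (4.06 to 5.02) after 7 days. Junb, which can restrain JUN activity, had 123 and 45.7 CPM with no recovery in the OGT-KO-labelled and control libraries, and 91.5 and 46.6 CPM after 7 days. The controls at the 2 times were alike within counting error, and the ratio to control was 2.70 (2.51 to 2.91) with no recovery, then 1.97 (1.82 to 2.13) after 7 days.

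Jund, the member of the family that is expressed most steadily in resting tissue, had 269 and 149 CPM with no recovery and 190 and 151 CPM after 7 days, again with the OGT-KO-labelled library first. Its ratio to control was 1.80 (1.73 to 1.88) and 1.26 (1.21 to 1.32), the smallest of the JUN family at both times. Relative to the median gene, Jund stood 0.34 higher on the log2 scale with no recovery and 0.14 lower after 7 days (-0.14), and its 7-day difference of 0.33 became -0.35 with median-ratio scaling. The direction for Jund at 7 days thus depended on the scaling, whereas those of Jun and Junb did not: with median-ratio scaling Jun differed by 1.38 and 1.45 and Junb by 0.70 and 0.28.

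Members of the FOS family were scarce, and 3 of the 4 were below the 10 CPM mean. Fosl2, which encodes FRA-2 and alone passed it, had 57.3 CPM (54.3 to 60.5) and 13.4 CPM (11.9 to 15.1) with no recovery in the OGT-KO-labelled and control libraries, and 37.3 CPM (34.8 to 39.9) and 10.4 CPM (9.05 to 11.9) after 7 days. The pattern was close to that of Jun, with ratios to control of 4.28 (3.76 to 4.88) and 3.58 (3.07 to 4.19). Fos itself had 8.62 and 2.78 CPM with no recovery and 5.10 and 1.75 CPM after 7 days. These rest on 197, 59, 115 and 35 reads, and the ratios were 3.10 (2.31 to 4.23) and 2.91 (1.98 to 4.38).

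Fosl1, which encodes FRA-1, was nearly undetected in the controls. It had 164 reads (7.17 CPM) against 5 reads (0.235 CPM) with no recovery and 75 reads (3.32 CPM) against 3 reads (0.150 CPM) after 7 days. The ratios of the OGT-KO-labelled library to control, 30.5 (12.8 to 95.2) and 22.1 (7.29 to 110), had the widest intervals of the finite ratios in the set, since the control reads were so few. Fosb departed from the rest of the family. It had 2.54 CPM (58 reads) in the OGT-KO-labelled library and 4.52 CPM (96 reads) in the control with no recovery, a level 1.78-fold (1.27 to 2.51) higher in the control. After 7 days it had 1.28 CPM (29 reads) in the OGT-KO-labelled library and 0 reads in the control, where 3 reads, or 0.150 CPM, is the limit that a count of 0 allows, which puts the OGT-KO-labelled library 8.56-fold higher with the control set at that limit, and at least 6.52-fold higher by the exact 95% interval of the ratio.

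Atf3, a stress-induced factor of the ATF/CREB group, differed between labels by more than any other member past the 10 CPM mean. It had 47.6 CPM (44.8 to 50.5) in the OGT-KO-labelled library with no recovery, 2.96 CPM (2.28 to 3.79) in the control with no recovery, 17.5 CPM (15.8 to 19.3) in the OGT-KO-labelled library after 7 days and 0.801 CPM (0.458 to 1.30) in the control after 7 days, the last from 16 reads. The 4 intervals did not meet, and the order was that of label first and time within it. The ratio to control was 16.1 (12.5 to 21.1) with no recovery, then 21.8 (13.3 to 38.6) after 7 days. On the log2 scale Atf3 stood 3.62 and 3.36 above the control, 3.11 and 2.88 relative to the median gene.

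Myc had 69.7 CPM (66.3 to 73.2) and 11.1 CPM (9.69 to 12.6) with no recovery in the OGT-KO-labelled and control libraries, and 43.5 CPM (40.8 to 46.3) and 11.5 CPM (10.03 to 13.1) after 7 days. The controls were alike within counting error, and the ratio to control was 6.31 (5.50 to 7.26) with no recovery, then 3.79 (3.28 to 4.40) after 7 days. Egr1 showed another order. It had 40.3 CPM (37.8 to 43.0) in the OGT-KO-labelled library and 57.2 CPM (54.1 to 60.6) in the control with no recovery, and 67.6 CPM (64.2 to 71.1) and 40.2 CPM (37.4 to 43.0) after 7 days. The OGT-KO-labelled library was the lower with no recovery, by 1.42-fold (1.30 to 1.55), and the higher after 7 days, by 1.68-fold (1.54 to 1.84). With median-ratio scaling the log2 difference of Egr1 was -1.20 with no recovery and 0.06 after 7 days.

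**Figure D1:**
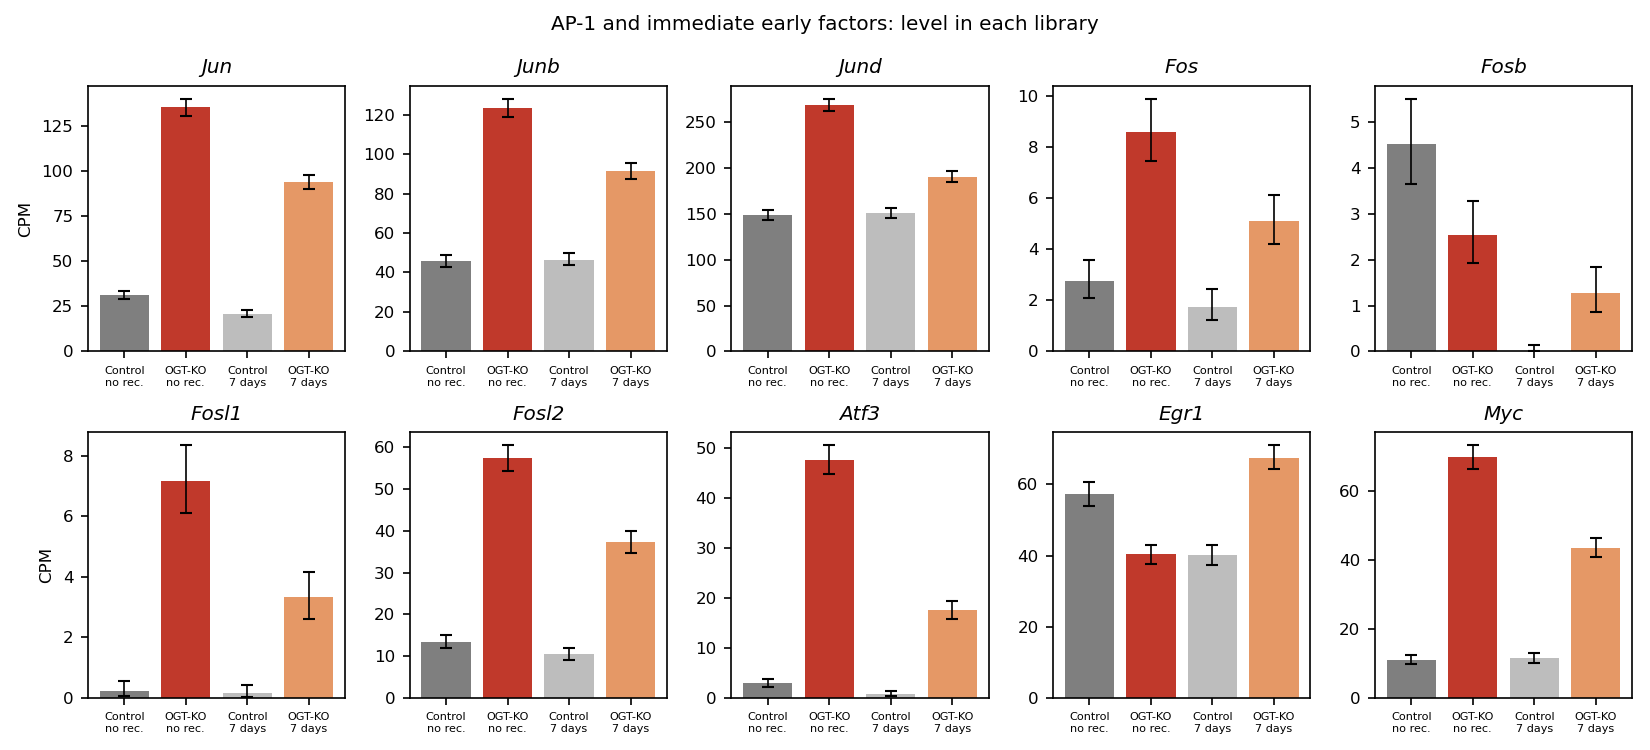
Level of each member in CPM (vertical axes, each from 0) in the 4 libraries, 1 bar per library with its exact 95% Poisson interval. Jun, Fosl2, Atf3 and Myc stand higher in both OGT-KO-labelled libraries, Egr1 is highest at 67.6 CPM in the OGT-KO-labelled library after 7 days, and Fosb is at 0 in the control after 7 days.

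Set against the length of their annotated exons, the members spanned a wide range of levels. In the OGT-KO-labelled library with no recovery the order in CPM per kilobase of exon was Jund (161), Junb (53.7), Jun (42.5), Myc (25.7), Atf3 (22.1), Egr1 (8.99), Fosl2 (5.92), Fos (3.66), Fosl1 (3.53) and Fosb (0.406), with only Fos and Fosl1 not apart from each other by their intervals. In the control with no recovery Jund (89.3) and Junb (19.9) led again, but Egr1 (12.8) came before Jun (9.78) and Myc (4.07). Atf3 (1.38) lay there between Fosl2 (1.39) and Fos (1.18), from neither of which its interval was apart, and Fosb (0.723) and Fosl1 (0.116) came last. After 7 days Jund and Junb led in both libraries. Next came Jun (29.5) and Myc (16.0) in the OGT-KO-labelled library, where the intervals of Myc and Egr1 (15.1) met, and Egr1 (8.96) and Jun (6.53) in the control. From Fosl2 (1.08) downwards in that control, each of Fos (0.745), Atf3 (0.372), Fosl1 (0.0739) and Fosb (0) met the interval of its neighbour.

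Summed per kilobase, the 3 JUN genes reached 257 and 119 CPM per kilobase with no recovery in the OGT-KO-labelled and control libraries, and 183 and 117 after 7 days. The 4 FOS genes reached 13.5, 3.40, 7.86 and 1.89 in the same order. JUN transcripts thus exceeded FOS transcripts by 19.0-fold and 34.9-fold with no recovery and by 23.3-fold and 61.8-fold after 7 days, a smaller excess in the OGT-KO-labelled library at each time. Within the JUN family, the share of Jund was 62.6% and 62.3% in the OGT-KO-labelled libraries and 75.1% and 77.2% in the controls, and that of Jun was 16.5% and 16.1% against 8.22% and 5.58%. Lengths are those of all annotated exons joined, which may exceed the transcripts that are present.

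**Figure D2:**
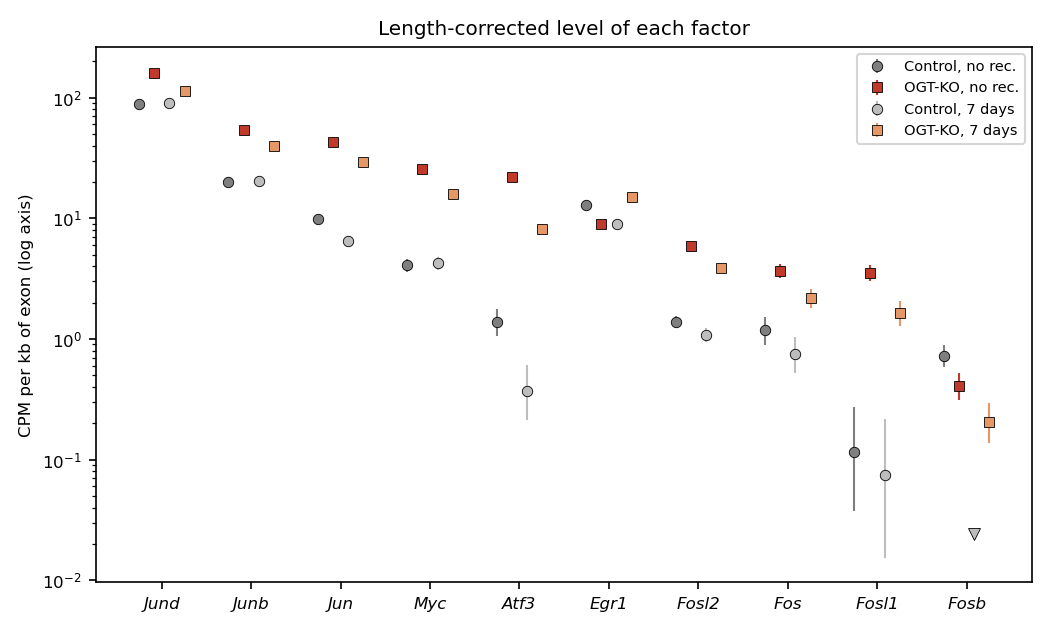
CPM per kilobase of annotated exon (log axis) for each member in the 4 libraries, ordered by the OGT-KO-labelled library with no recovery, with exact 95% Poisson intervals. The downward triangle marks the upper limit for Fosb in the control after 7 days, where no read was found; Jund is the highest member in every library.

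Across the set, the difference between labels pointed the same way for most members. The rule for calling a difference was at least 2-fold on the log2 scale among genes whose mean reached 10 CPM. With no recovery 5 of the 7 members past that mean (Jun, Junb, Fosl2, Atf3 and Myc) were called higher in the OGT-KO-labelled library, against 24.4% of all genes compared, and 0 were called lower, against 5.69%. After 7 days 4 of the 7 (Jun, Fosl2, Atf3 and Myc) were called higher, against 22.9%, and 0 lower, against 4.27%. Those 4 were called at both times, as were 19.2% of genes. Atf3, at 2.96 and 0.801 CPM in the controls, passed that mean only through the OGT-KO-labelled libraries. Counts among the 7 are therefore a description. Without the low-value limit, 7 of the 10 members were called higher at each time, against 33.1% and 32.3%. Beyond the median gene, 4 of the 7 were higher by 2-fold at each time, against 12.8% and 13.3%. With median-ratio scaling 4 of the 7 were called higher at each time, against 10.4% and 11.6%, and 1, Egr1, was called lower with no recovery, against 15.4%.

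The median member differed by 1.72 on the log2 scale with no recovery and 1.47 after 7 days, and the median of all 13903 genes by 0.65 and 0.61. Relative to the median gene, 8 of the 10 members lay higher with no recovery and 9 after 7 days. Both OGT-KO-labelled libraries stood above both controls for 8 of the 10 members and for 6 of the 7 past the 10 CPM mean. That ordering also held for 70.0% of all genes compared, so the share of members with it was not far above the background, which was 74.4% without the low-value limit. The exceptions were Fosb and Egr1, which were lower in the OGT-KO-labelled library with no recovery and higher after 7 days, and 9.22% of genes differed in opposite directions at the 2 times.

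**Figure D3:**
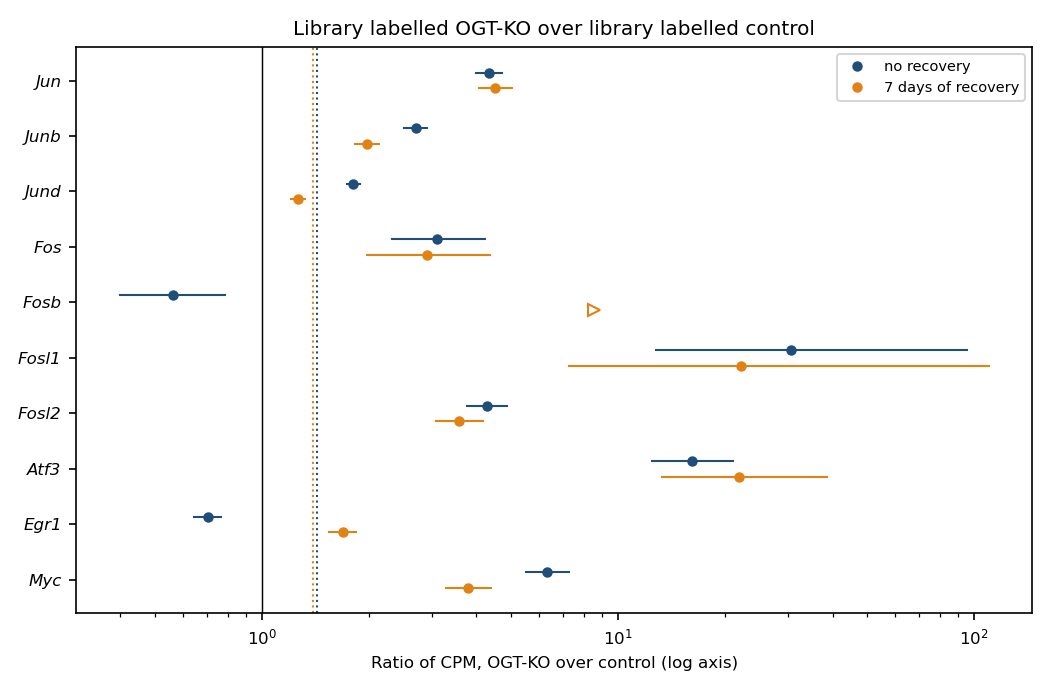
Ratio of CPM in the OGT-KO-labelled library to the control for each member with no recovery and after 7 days (log axis), with exact 95% intervals; dotted lines give the median of the 8963 genes compared and the open triangle the ratio of 8.56 for Fosb with the control set at 3 reads. Fosl1 and Atf3 lie farthest above 1, and Fosb and Egr1 lie below 1 with no recovery only.

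The second comparison asked how levels after 7 days of recovery stood to those with no recovery. Atf3 was the only member called past the 10 CPM mean. In the control it was 3.70-fold (2.11 to 6.86) lower after 7 days, against 0.960% of genes called lower. Atf3 passed that mean only through the OGT-KO-labelled libraries, its control values rest on 63 and 16 reads, and with a pseudocount of 10 it was not called in the control (-0.26 on the log2 scale). In the OGT-KO-labelled libraries it was 2.72-fold (2.42 to 3.06) lower, against 0.435%. Lower in both labels by 2-fold were 0.0781% of genes. No member was called higher, against 0.245% of genes in the control and 1.04% in the OGT-KO-labelled libraries. Below the 10 CPM mean, Fosb went from 96 reads to 0 in the control, which is 30.1-fold lower after 7 days with 0 set at the limit of 3 reads and at least 24.0-fold lower by the exact 95% interval. Without the low-value limit Atf3 and Fosb were thus called lower in the control, against 0.964% of genes.

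Smaller differences mostly had the same sign. In the OGT-KO-labelled libraries, 9 of the 10 members were lower after 7 days, against 54.5% of all genes compared, with a median of -0.62 on the log2 scale. The CPM ratio of 7 days to no recovery there was 0.693 for Jun, 0.741 for Junb, 0.709 for Jund, 0.591 for Fos, 0.463 for Fosl1, 0.650 for Fosl2 and 0.624 for Myc. Egr1 was the exception, at 1.68 (1.54 to 1.82). In the control 7 of the 10 members were lower, with a median of -0.40, a share near the 60.5% of genes compared. The 10 members include 3 below the 10 CPM mean, which the genes compared do not. Jun had a ratio of 0.668 there, Fos 0.631, Fosl2 0.777 and Egr1 0.701, whereas Junb (1.02), Jund (1.01) and Myc (1.04, 0.861 to 1.25) were near 1. Lower after 7 days in both labels were 6 of the 10 members and 35.1% of genes compared.

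**Figure D4:**
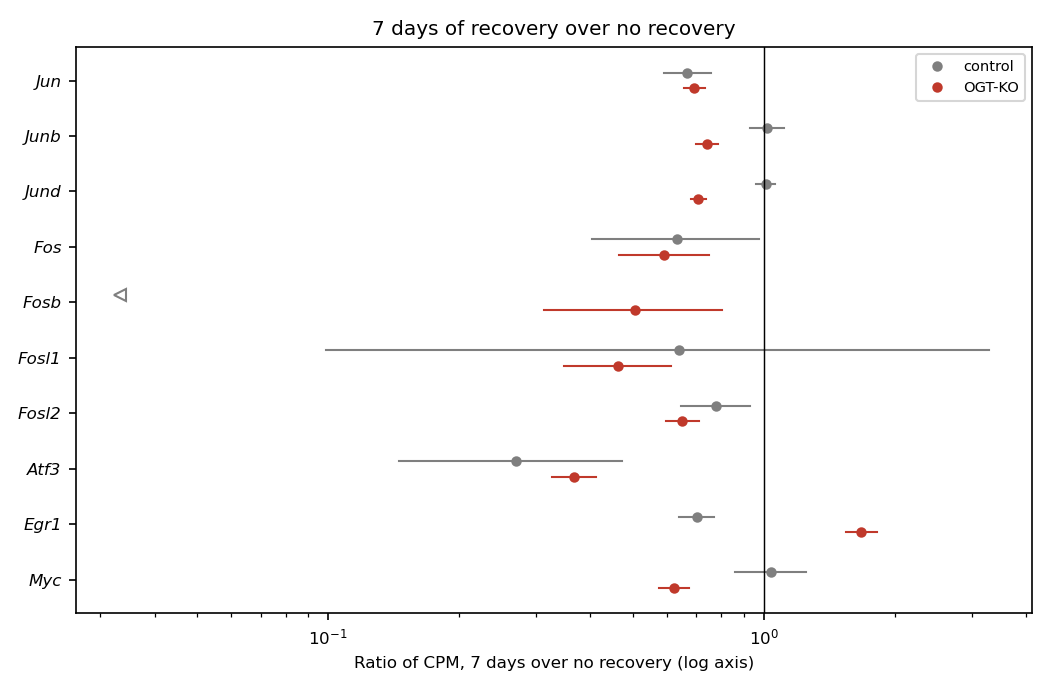
Ratio of CPM after 7 days to CPM with no recovery for each member in the control and in the OGT-KO-labelled libraries. The axis is log, and horizontal lines are exact 95% intervals. The open triangle gives the ratio for Fosb in the control with the 7-day library set at 3 reads. Atf3 is lower in both labels, and Egr1 is lower in the control (0.701) and higher in the OGT-KO-labelled libraries (1.68).

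Whether the difference between labels itself changed with time was described by subtracting the 7-day log2 difference from that with no recovery. On the log2(CPM + 1) scale it was larger with no recovery for Fosl1 (0.82, with a 95% counting error of 0.45 either way), Myc (0.72, 0.27), Jund (0.51, 0.09) and Junb (0.45, 0.15), and smaller for Egr1 (-1.23, 0.17) and Fosb (-1.83, 0.48). Fosl2 (0.27, 0.27) lay at its counting error, and Jun (-0.04, 0.19), Atf3 (0.26, 0.44) and Fos (0.20, 0.50) lay within theirs. For Atf3 the order depends on the scale, since its CPM ratio to control was the larger after 7 days. Fosl1 lay beyond its counting error on the log2(CPM + 1) scale only. Its control reads were few, and the intervals of its CPM ratios, 30.5 (12.8 to 95.2) and 22.1 (7.29 to 110), overlapped. The middle 50% of the genes compared ran from -0.26 to 0.17. With 1 library in each cell of the design, this difference could not be tested.

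Profiles over the 4 libraries were also compared by the Euclidean distance between log2 values centred on their own mean. Within the set, the closest pairs were Fosl1 and Myc (0.24), Jun and Fosl2 (0.28) and Junb and Fos (0.38), and the farthest was Atf3 and Egr1 (3.72). The Fosl1 profile depends on the pseudocount, since its controls held 5 and 3 reads. With a pseudocount of 0.1 Fosl1 differed between labels by 4.44 and 3.77, and Myc by 2.65 and 1.91. The closeness of Fosl1 and Myc therefore belongs to the log2(CPM + 1) scale. Among members past the 10 CPM mean Atf3 had the largest change between labels and between times, and the genes of the table nearest to it were Marco (0.49), a scavenger receptor that is also on the list of macrophage markers, Tubb2b (0.49), a beta-tubulin, and Cdkn1a (0.54), which encodes the cell cycle inhibitor p21. Marco had 119, 11.1, 68.3 and 3.50 CPM in the order in which Atf3 was given. Cdkn1a had 191, 10.9, 93.1 and 5.86 CPM. For Egr1, whose neighbours were looked up after its values were seen, the nearest were Zfp395 (0.056), Tk1 (0.12) and Ces2c (0.16). These distances rest on 4 points.

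Other genes of the same pathways were listed by role, and each group is given below by its counts. Called at both times were 19.2% of all genes compared as higher and 3.74% as lower, and without the low-value limit 26.9% as higher. Genes that are low in the controls pass the 10 CPM mean only where the OGT-KO-labelled libraries are high, so counts among genes past it are a description. The MAP kinases that act upstream of AP-1 differed little: 2 of 14 past the 10 CPM mean were called higher in the OGT-KO-labelled libraries at both times and 0 lower, a share near the 19.2% of all genes, and the median of the 15 listed was 0.30 with no recovery and 0.43 after 7 days, under the median of all genes. The called pair were Map3k1, a kinase of the JNK cascade, with 56.7, 15.7, 80.6 and 16.3 CPM in the order OGT-KO and control with no recovery, then OGT-KO and control after 7 days, and Mapk3, which encodes ERK1, with 136, 37.5, 159 and 34.9 CPM. Unlike Jun and Fosl2, both kinases had their highest level in the OGT-KO-labelled library after 7 days. Of SRF and its cofactors 3 of 5 were called higher at both times (Elk3, Mrtfa and Mrtfb), against 19.2% of genes, and 0 lower, while Srf itself was near level at 21.1, 18.4, 18.7 and 17.7 CPM.

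Of 15 phosphatases and other feedback inhibitors of MAP kinases, 10 were at least 2-fold higher in the OGT-KO-labelled libraries at both times, against 26.9% of all genes, and their median was 1.45 and 1.48. Past the 10 CPM mean these were 6 of 8, against 19.2%, and 0 were lower, but Spry1, Dusp10 and Dusp7 passed it only through the OGT-KO-labelled libraries. Spry1, a sprouty inhibitor of receptor tyrosine kinase signaling, had 27.4, 4.61, 29.9 and 2.85 CPM. Dusp6, an ERK phosphatase, had 82.8, 29.6, 65.9 and 21.7 CPM, and Dusp10 and Dusp7 were also among those called. In each of these the OGT-KO-labelled libraries stood above both controls. Dusp1, named after its values were seen, had 39.7, 19.6, 19.4 and 27.5 CPM and was the lower in the OGT-KO-labelled library after 7 days. Among the other 11 AP-1 and MAF bZIP genes, 2 of 6 past the mean were called higher at both times, against 19.2% of genes, Mafk (72.6, 16.0, 41.7 and 20.1 CPM) and Maf (92.6, 41.3, 74.8 and 28.8 CPM).

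Of 21 other immediate early genes, 14 passed the 10 CPM mean. At both times 6 were called higher in the OGT-KO-labelled libraries and 1 lower, against 19.2% and 3.74% of all genes, and the median of the 21 was 1.25 and 1.42. Ccn2, a secreted matrix protein known as CTGF, had 146, 8.14, 66.7 and 3.00 CPM, and like Atf3 it was called lower after 7 days in both labels. Also like Atf3, Ccn2 passed the 10 CPM mean only through the OGT-KO-labelled libraries, and its control values rest on 173 and 60 reads. Btg2, an antiproliferative gene, had 97.3, 13.3, 45.5 and 9.11 CPM and was called lower after 7 days in the OGT-KO-labelled libraries. Sgk1 (73.1, 13.5, 65.2 and 6.96 CPM) and Ier5 (37.3, 7.67, 32.3 and 6.76 CPM) were higher at both times. Ier5 also passed the 10 CPM mean only through the OGT-KO-labelled libraries. The gene called lower was Phlda1, with 33.2, 235, 66.0 and 167 CPM, which is named after its values were seen.

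The genes of the ATF4 branch of the stress response, to which Atf3 belongs as a target, moved apart from one another. Trib3, a pseudokinase, had 97.3, 5.36, 38.1 and 6.21 CPM and Ddit3, which encodes CHOP, had 93.8, 12.3, 23.8 and 5.31 CPM. These 2 of the 4 past the 10 CPM mean were called higher in the OGT-KO-labelled library at both times, against 19.2% of genes. Both were also called lower there after 7 days, as Atf3 was, against 0.435% of genes. In the control 1 of the 4, Ddit3, was called lower after 7 days, against 0.960%. Trib3 passed that mean only through the OGT-KO-labelled libraries. So did Ddit3, whose controls of 12.3 and 5.31 CPM average under 10 CPM. Atf4 itself had 206, 130, 117 and 134 CPM and was called in no comparison. The 5 listed genes had a median difference between labels of 1.44 without recovery and -0.20 after 7 days.

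Genes that AP-1 is known to activate, a list chosen with earlier results of these data known, were higher in the OGT-KO-labelled libraries. Of these, 11 of the 11 found in the table were at least 2-fold higher at both times, as were 26.9% of all genes. The medians were 2.97 and 2.56. Some of these genes rest on few control reads with no recovery and after 7 days, 1 and 0 for Mmp13, 4 and 6 for Timp1 and 12 and 11 for Plaur. AP-1 activity was not tested. The 5 past the 10 CPM mean included Spp1, which encodes osteopontin (977, 41.0, 1245 and 52.1 CPM), Cd44, a hyaluronan receptor (72.3, 8.33, 72.4 and 3.25 CPM), Ccnd1, which encodes cyclin D1 (251, 42.5, 437 and 47.3 CPM) and Tgfb1 (52.6, 9.78, 44.1 and 6.66 CPM). None of these 4 was called lower after 7 days in the OGT-KO-labelled libraries, and Ccnd1 had its highest level there. In the control, Cd44 was called lower after 7 days, from 177 reads with no recovery and 65 after 7 days. Cd44 and Tgfb1 passed the 10 CPM mean only through the OGT-KO-labelled libraries. Of 15 genes that MYC is known to activate, all past the 10 CPM mean, 4 were called higher at both times (Rrp12, Cad, Nop56 and Odc1), against 19.2% of genes, and 0 lower. Their medians of 0.85 and 0.81 stood beside 0.51 and 0.48 for the genes compared, and 11 and 12 of the 15 lay above the median gene.

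Of the partners and relatives of MYC, 2 of 11 past the mean were called higher at both times, Mxd3 and Mlxip, a share near the 19.2% of all genes, and 1 lower, against 3.74%. That gene was Mlxipl, which encodes the glucose-responsive factor ChREBP, with 163, 485, 219 and 620 CPM. The partner Max had 53.0, 22.8, 36.4 and 22.3 CPM. The EGR corepressors Nab1 and Nab2 were called in no comparison, with medians of 0.24 and 0.18.

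**Figure D5:**
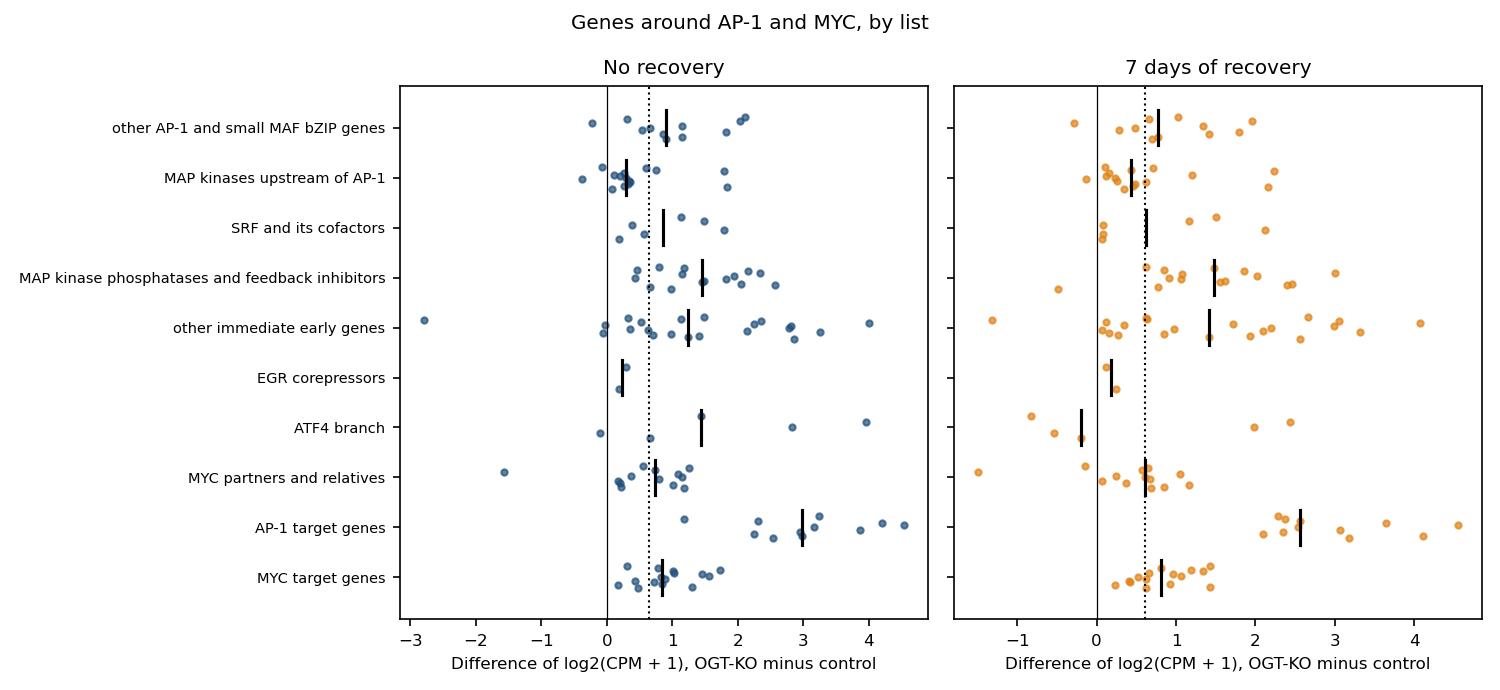
Difference of log2(CPM + 1) between the OGT-KO-labelled library and the control for each gene of the pathway lists, with no recovery and after 7 days. Points are genes, black ticks are list medians and the dotted line is the median of all 13903 genes. The AP-1 target list has the highest median, and the medians of the MAP kinase and EGR corepressor lists lie under the line at both times.

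Markers of cell types differed with the label as well. In bulk liver, fewer cells of a type and less RNA per cell cannot be told apart. The hepatocyte markers summed to 50956 and 72409 CPM with no recovery in the OGT-KO-labelled and control libraries, and to 63009 and 82212 CPM after 7 days. Markers of stellate cells and myofibroblasts summed to 2243, 92.6, 2867 and 68.2 CPM, those of macrophages to 608, 162, 434 and 61.9 CPM, and those of bile duct to 171, 12.7, 212 and 17.5 CPM. Each of these 3 lists was higher in the OGT-KO-labelled libraries at both times. The matrix genes Col1a1 (875, 21.0, 1192 and 16.5 CPM) and Col3a1 (1212, 50.4, 1549 and 38.4 CPM) made up most of the stellate cell sum. Lrat on that list differed less (38.4, 10.6, 38.6 and 6.46 CPM). Alb (41362, 47845, 51507 and 54435 CPM) made up most of the hepatocyte sum, in which Cyp2e1 differed more (586, 5235, 849 and 6470 CPM). Neutrophil markers (14.0, 2.40, 23.4 and 1.001 CPM) and the 2 T and B cell markers found of 4 (3.76, 1.08, 1.73 and 0.651 CPM) also stood higher. Endothelial markers summed to 246, 148, 178 and 109 CPM, a ratio to control of 1.66 and 1.63. Of these markers none found in the table was at 0 in any library. Macrophage, endothelial and T and B cell markers were also lower after 7 days in each label, as Atf3 was, and bile duct markers were higher. The part of these cell types in the levels of Jun, Fosl2, Atf3, Myc and the others was not tested.

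Some members share their place in the genome. In GENCODE M21, Junb overlaps Prdx2 on the opposite strand (135, 88.0, 118 and 85.1 CPM) and Fosl1 overlaps Ccdc85b (19.8, 14.1, 15.7 and 12.1 CPM), and Jun and Jund each overlap an antisense gene that is not in the table used here. Whether reads were counted by strand is not given in the sources used here, so for these 4 members reads of the partner cannot be told apart from their own. The 5 and 3 reads of Fosl1 in the controls, beside 14.1 and 12.1 CPM of Ccdc85b, are an upper limit to what that partner added there.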

How the data were processed

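The authors deposited 1 table of 13903 genes named for DESeq2, but its 4 columns each sum to 1000000, so the deposited values were read as CPM. The submitters' processing notes name STAR, DESeq2 and GRCm39, and the counter and its strand setting are not given in the sources used here. The accompanying paper does not describe these libraries, and no method was taken from it. Of the values, 100% were whole multiples of 1 read (tolerance 0.01), and reads were recovered from them, 19972699 to 22866431 per library. A count of 0 allows 3 reads, 0.131 to 0.150 CPM. Whole reads allowed an exact binomial test with Benjamini-Hochberg adjustment, which compares libraries and not conditions. Differences are of log2(CPM + 1), which understates changes of low genes. The 8963 genes whose mean reached 10 CPM were compared, and 2-fold differences were called.

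The members and gene lists were chosen with earlier results of these data known. Named genes were all members, Ogt, and from each list up to 4 genes called in both comparisons of labels or in either of recovery, by largest mean change, and the 3 nearest profiles of the members that changed most. Srf, Dusp1, Phlda1, Atf4, Max and the neighbours of Egr1 were added after their values were seen. Lengths and overlaps came from GENCODE M21 (GRCm38), promoters from RefSeq (GRCm38.p6). Alternatives were pseudocounts of 0.1 and 10, no low-value limit, a mean of 50, upper-quartile and median-ratio scaling, a 4-fold threshold and the binomial test. Steps were tested on simulated reads. Python 3.11.15, numpy 2.4.6, pandas 2.3.3, scipy 1.17.1 and matplotlib 3.10.9 were used.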

Additional observations from a re-analysis of the deposited data

Results flagged for a closer look

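Fosb differed in opposite directions between labels at the 2 times. On the log2(CPM + 1) scale it was -0.64 in the OGT-KO-labelled library less control with no recovery and 1.19 after 7 days. It was below the 10 CPM mean, and with 0 reads in the control after 7 days the second value depends on the pseudocount. The difference between the times was not tested.

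Egr1 also changed sign, from -0.50 with no recovery to 0.74 after 7 days. Seen over time, it was lower after 7 days in the control (-0.50) and higher in the OGT-KO-labelled libraries (0.73). These are the same 4 values read along the other axis, from 802 to 1525 reads per library. With no replicate library the difference was not tested.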

How the results depend on the processing

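Of the 40 log2 differences of members (10 members in 4 comparisons), 0 changed sign with a pseudocount of 0.1 or 10. Upper-quartile scaling, median-ratio scaling and centring on the median gene, the last added after seeing the data, each turned 1, Jund after 7 days (0.33 to -0.15, -0.35 and -0.14). No called value reversed. Members called higher in the OGT-KO-labelled library with no recovery went from 5 to 2 with a mean of 50 CPM, and after 7 days from 4 to 7 with no low-value limit, to 1 with a mean of 50 CPM and to 2 at 4-fold. Members called lower there with no recovery went from 0 to 1, Egr1, with median-ratio scaling and with centring. With these scalings 4 members were called higher at each time. Median-ratio scaling also lowered the share of all genes called higher from 24.4% to 10.4% with no recovery and from 22.9% to 11.6% after 7 days. Members called lower after 7 days in the control went from 1 to 0 with a pseudocount of 10, a mean of 50 CPM or 4-fold, and to 2 with no low-value limit. In the OGT-KO-labelled libraries that count went from 1 to 0 with a mean of 50 CPM or 4-fold. A higher mean removes members by construction. The exact binomial test on reads, at an adjusted p under 0.05, called 8016 and 7904 of 8963 genes between labels and kept every 2-fold call.

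No paired analysis was possible because the labels give no replicate numbers and each group has 1 library. Depth limits Fosl1 in the controls (5 and 3 reads), Fosb and Atf3 in the control after 7 days (0 and 16 reads).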
